A study of Mus musculus with 24 samples.

Results

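The cells described here are cultured mouse periosteal cells of the YAPCA genotype that were left untreated, and their state of expression before any induction is read from 3 RNA libraries. They are 3 of the 24 samples of the series, which measured RNA and open chromatin in 2 genotypes with and without doxycycline (Dox), in 8 groups of 3. The labels identify the 3 libraries as untreated YAPCA RNA, and the 35975 genes listed for them were ranked by their mean over the 3 libraries. YAPCA cells carry tetO-YAPS127A together with Gt(ROSA)26Sortm1(rtTA,EGFP)Nagy/J and B6.C-tg(CMV-Cre)1Cgn/J, so the untreated cells hold the same transgenes as the induced ones. In words, a Cre recombinase is driven by the CMV promoter, the Dox-responsive transactivator rtTA and EGFP sit at the Rosa26 locus, and the mutant YAP lies behind a tetO promoter. The comparison groups are YAPCA cells given 1 µM Dox and untreated wild-type (WT) cells of genotype C57BL6, with 3 RNA libraries each. All were primary cultures grown in α-MEM with 15% serum, Dox was given in 10% serum, and because Dox was dissolved in water the untreated cells received no vehicle. The sources used here do not say how many animals the cultures came from. The labels call the libraries of a group technical replicates, so an SD or a p-value covers the differences among these libraries alone, and those may be technical. Reads of Cre, rtTA, EGFP or the YAP transgene were not analysed here.

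The periosteum is the fibrous and cellular sheath of bone, and its cells can form bone and cartilage when a fracture heals. YAP is a co-activator that binds TEAD transcription factors and is held in the cytoplasm by the Hippo kinases. The S127A change removes a serine that those kinases phosphorylate. Periosteal progenitors are usually described by mesenchymal transcription factors such as Prrx1, by receptors such as Pdgfra, and by the matrix genes Postn and Col1a1.

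The untreated cells expressed all 4 of those markers. Prrx1, a homeobox factor of limb mesenchyme, had 9089, 8952 and 9241 normalised read counts in replicates 1, 2 and 3 and ranked 374. A normalised read count is the number of reads counted for a gene divided by a factor that brings the libraries to a common depth. Postn, which encodes the matricellular protein periostin, had 11772, 11562 and 11750 normalised read counts and ranked 248. Pdgfra, a receptor for platelet-derived growth factor, had 6612, 6380 and 6929 normalised read counts and ranked 563, and Col1a1, a chain of type I collagen, ranked 1. The values of each marker thus lay close together in the 3 libraries, and none of the 4 went against the label of the cells.

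The 3 libraries held 28734643, 24858356 and 16351891 reads counted over genes. A count of 3 reads, the limit that a count of 0 allows, stood for 2.40, 2.78 and 4.22 normalised read counts, for counting error only. Of the 35975 genes, 13495 (37.5%) were detected, defined here as a mean of 10 normalised read counts or more. A further 8072 had some reads but a lower mean, and 14408 (40.1%) had no read in any of the 3 libraries, which together held 69944890 reads. No read over all 3 allows a share of up to 0.0429 CPM (3 reads of that total). Genes of at least 1000 normalised read counts numbered 4680, and those of at least 10000 numbered 324. Reads per gene grow with the length of its transcript and no length is used here, so the rank of a gene is a rank of reads and not of transcripts.

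The most abundant reads were those of a fibrous matrix and of the contractile cytoskeleton. Among the 20 highest genes, 13 belonged to a list of 48 extracellular matrix genes, and 4 of the rest encode cytoskeletal proteins. The 20 highest genes took 11.6 ± 0.135% of all reads, the 100 highest took 24.1 ± 0.107%, and the 48 matrix genes took 10.6 ± 0.171% (SD, n = 3). Of the 100 highest, 25 were in the matrix list, 4 encoded ribosomal proteins and 4 were mitochondrial.

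Col1a1 led with 317287, 310372 and 293675 normalised read counts, which is 1.34% of all reads. Col1a2, the other chain of type I collagen, had 220803, 219164 and 222112 normalised read counts. The fibril-forming collagen genes Col3a1 (85163 ± 2537 normalised read counts), Col5a2 (76117 ± 849) and Col5a1 (68396 ± 2433) also stood among the 20 highest (SD, n = 3). Fibrillar collagens I, III and V were thus all among the genes with the most reads. Thbs1, which encodes the adhesive glycoprotein thrombospondin 1, had 254781, 257237 and 238733 normalised read counts and was second. Fn1, the gene of fibronectin, which assembles into fibrils around cells, had 184676, 183852 and 186745. Sparc, a collagen-binding matricellular protein, had 165979, 167149 and 168968 normalised read counts. Thbs1 was lowest in replicate 3, while Fn1 and Sparc were highest there.

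Proteins that modify or protect the matrix were close behind. Lox, the lysyl oxidase that cross-links collagen, had 135760, 130978 and 133830 normalised read counts. Bgn, a small proteoglycan, reached 116419 ± 1823 normalised read counts, Timp3, an inhibitor of metalloproteinases, 67576 ± 1264, and Serpinh1, the chaperone of collagen folding, 65925 ± 1081 (SD, n = 3). Secreted Csf1, the growth factor of the macrophage lineage, was 16th with 78440, 78756 and 74531 normalised read counts. Of the cytoskeletal genes, Actb averaged 141021 ± 7636, Acta2 (smooth muscle actin) 121158 ± 2268, Vim (vimentin) 108102 ± 1172 and Flna (filamin A) 94103 ± 3588 normalised read counts (SD, n = 3). The translation factor Eef1a1 (140937 ± 1465) and the mitochondrial COX1 (110216 ± 14917) were also among the 20.

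**Figure D1:**
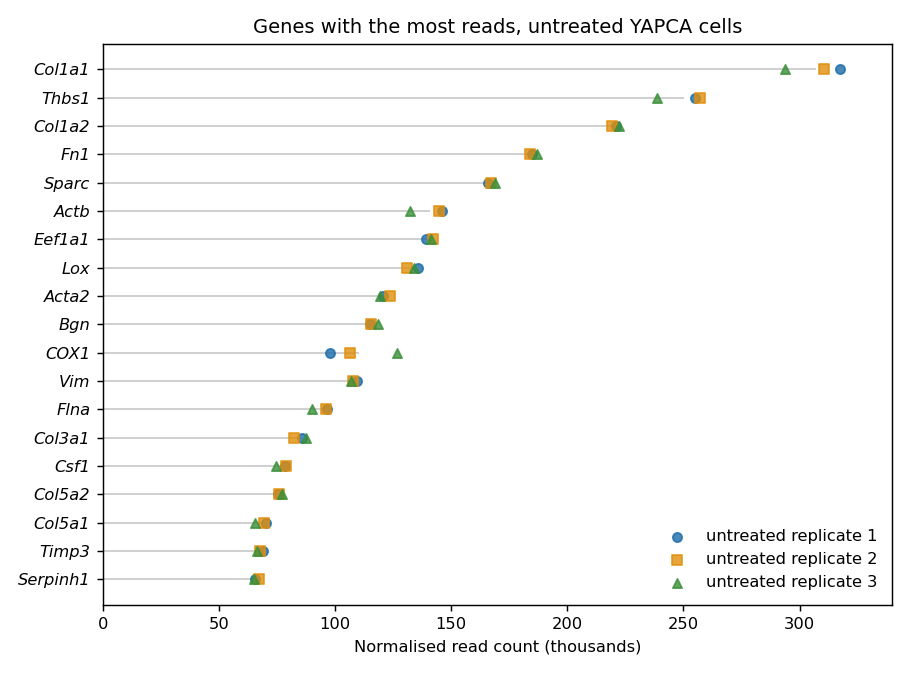
19 of the 20 genes with the highest mean in untreated YAPCA cells, as normalised read counts divided by 1000; each point is a library and each grey line ends at the mean of 3. Col1a1 lies at 293675 to 317287 normalised read counts and Serpinh1, the lowest of them, at 65190 to 67167.

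Promoter sequence is shown for 3 highly expressed genes that illustrate what lies next to their starts, the 250 bases before the annotated start on the strand of the gene, from RefSeq on GRCm38.p6 (the mm10 build). They are Cyr61 (Ccn1), a matricellular protein induced by YAP, at chr3:145649986-145650235 on the minus strand, Vim at chr2:13574061-13574310 on the plus strand and Acta2 at chr19:34255374-34255623 on the minus strand. Capitals mark TATAAA, the core of the TATA box, and GGAATG, the core bound by TEAD factors, on either strand, so that GGAATG can appear as CATTCC; the marked stretches do not overlap.
Cyr61 (Ccn1): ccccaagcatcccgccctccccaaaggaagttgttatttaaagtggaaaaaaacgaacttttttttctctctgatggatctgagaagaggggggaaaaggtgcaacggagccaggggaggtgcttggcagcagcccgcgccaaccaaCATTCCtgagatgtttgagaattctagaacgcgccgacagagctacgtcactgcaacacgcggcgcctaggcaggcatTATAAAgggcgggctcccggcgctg
Vim: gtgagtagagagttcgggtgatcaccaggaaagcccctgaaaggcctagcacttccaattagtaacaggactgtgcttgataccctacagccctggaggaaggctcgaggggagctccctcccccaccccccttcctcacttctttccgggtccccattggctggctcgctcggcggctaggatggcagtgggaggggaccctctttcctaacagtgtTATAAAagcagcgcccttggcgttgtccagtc
Acta2: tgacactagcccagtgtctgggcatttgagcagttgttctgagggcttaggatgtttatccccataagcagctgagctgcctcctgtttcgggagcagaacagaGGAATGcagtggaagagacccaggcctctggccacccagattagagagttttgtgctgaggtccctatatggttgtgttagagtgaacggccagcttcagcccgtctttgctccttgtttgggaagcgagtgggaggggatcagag
Cyr61 has one match to each motif in this window, Vim has TATAAA only and Acta2 has GGAATG only. Cyr61 averaged 24520 ± 1550 normalised read counts in the untreated cells (SD, n = 3). Promoters were in the RefSeq table for 80 of the 100 highest genes, of which 17.5% held TATAAA and 22.5% held GGAATG. Over the 17492 protein-coding genes with an entry, these shares were 13.7% and 13.5%. TATAAA was in 7.86% of the promoters of detected protein-coding genes and in 26.1% of those of protein-coding genes at 0 in all 3 libraries, while GGAATG was in 12.9% and 13.3%. The 33 matrix genes with an entry held TATAAA in 21.2% and GGAATG in 12.1%. A match describes these letters in this window and is not evidence of a bound factor.

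Other periosteal and mesenchymal genes were also expressed, on a list chosen with earlier results of these data known. Of 28 periosteal and mesenchymal markers, 26 were detected and 18 reached 1000 normalised read counts, with a median of 3157. The detected share was 92.9%, against 58.3% of all protein-coding genes. It was also above that background in the receptor list (87.3%) and the tendon and ligament list (85.7%). S100a4, a calcium-binding protein of fibroblasts, averaged 36262 ± 1074 normalised read counts, Pdgfrb 15176 ± 249, the hyaluronan receptor Cd44 11607 ± 296 and Ly6a, which encodes Sca-1, 10254 ± 377 (SD, n = 3). The chemokine Cxcl12 averaged 8794 ± 259 normalised read counts, the surface glycoprotein Thy1 6333 ± 128 and the BMP antagonist Grem1 3501 ± 61.2. Ctsk, the cathepsin used to mark a periosteal stem cell population, averaged 1625 ± 49.9 normalised read counts. At the low end stood Gli1, a Hedgehog target at 11.5 ± 2.81, and, below the detection level, the fibroblast progenitor marker Pi16 at 7.96 ± 3.31 and the leptin receptor Lepr, a marker of marrow stromal cells, at 4.65 ± 2.09 normalised read counts.

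Genes of the skeletal lineages were present in part, with the regulators detected and most genes of the mature cell low or absent. Runx2, the factor that commits cells to bone, had 1172, 1181 and 1198 normalised read counts. Sp7 (osterix), which acts after Runx2, had 338, 315 and 329, and Alpl, the alkaline phosphatase of mineralising cells, had 417, 368 and 425. Spp1 (osteopontin), which many cell types also make, had 31952, 32796 and 32746 normalised read counts, whereas Bglap (osteocalcin) and Mepe had no read. Whether reads were shared between Bglap and the similarly named Bglap2, also on the list, was not tested. Osteocyte gene Dmp1 averaged 1.35 and bone sialoprotein gene Ibsp 1.62 normalised read counts, both below the detection level. In all, 9 of 16 osteoblast and osteocyte genes were detected, with a median of 25.6 normalised read counts. That share, 56.25%, was close to the 58.3% of all protein-coding genes detected, which is also the background for the lists that follow. The count alone therefore does not mark the lineage.

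The cartilage list was also mixed, with 9 of 16 genes detected and a median of 21.0 normalised read counts. Col2a1, the main collagen of cartilage, had 3055, 3018 and 2864 normalised read counts, and Sox9, the factor that directs chondrocyte fate, had 464, 420 and 428. Col10a1, the collagen of hypertrophic cartilage, had 181, 178 and 128, lowest in replicate 3. Aggrecan gene Acan averaged 19.6 normalised read counts, and Matn1, Col9a1 and Cnmd (listed as Lect1) had no read in any library. Col2a1 thus stood far above the other cartilage genes of the list, next to which Comp averaged 363 ± 11.6 normalised read counts (SD, n = 3).

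Of 7 tendon and ligament genes, 6 were detected. Tnc (tenascin C) averaged 30427 ± 1994 and Fmod (fibromodulin) 8924 ± 147 normalised read counts, and the tendon factor Scx had 697, 742 and 701 (SD, n = 3 for the means). The mature tendon gene Tnmd averaged 64.0 ± 9.78. Among 14 adipocyte genes, 6 were detected. Pparg, the master regulator of fat cells, had 677, 703 and 704 normalised read counts and Cebpa averaged 870 ± 20.1, while Lpl, a lipase also made by other mesenchymal cells, averaged 2702 ± 213. Lep and Cidec of mature fat cells were at 0. Smooth muscle and pericyte genes were detected for 10 of 13, among them the contractile Cnn1 at 10026 ± 163, Lmod1 at 1767 ± 58.5 and Myh11 at 734 ± 24.5 normalised read counts. Tagln of the same list averaged only 18.3 ± 1.22. The list members Kcnj8, Abcc9 and Higd1b had means below 10 over the untreated and Dox YAPCA libraries together. For skeletal muscle, 4 of 14 were detected, the highest being Acta1 at 1112 ± 78.0, and Myf5 and Myh2 had no read.

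Most of the listed markers of other cell types were low or absent, with exceptions in the osteoclast, neural and epithelial lists. In bulk RNA, fewer cells of a type and less RNA per cell cannot be told apart. Of 15 endothelial markers, 6 were detected and none reached 100 normalised read counts, the summed level of the list being 206 to 225 per library. The highest was Egfl7 with 83.2, 76.8 and 99.9, and Emcn, Cldn5 and Sox17 were at 0. For macrophages and leukocytes, 4 of 17 were detected, with summed levels of 413 to 470 normalised read counts. Csf1r, the receptor of Csf1, had 222, 182 and 210, while Tyrobp, Aif1, C1qa and C1qb were at 0 and Ptprc, the common leukocyte antigen CD45, averaged 0.842. The other detected members were Cd14, the co-receptor for endotoxin, at 116 ± 5.06, the lysozyme gene Lyz2 at 66.7 ± 7.49 and the lysosomal Cd68 at 44.9 ± 7.21 (SD, n = 3). The list thus held 4 members with reads above the detection level and 13 below it, and whether macrophages in the cultures carried these reads was not tested.

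Lymphoid, neutrophil and erythroid genes were detected for 1 of 16, with 10 at 0, among them Cd3e, Hba-a1 and S100a9. The summed levels of that list were 15.2 to 17.6 normalised read counts per library. Of 11 osteoclast markers, 5 were detected. The highest were Ctsk, which is also in the periosteal list, Nfatc1 (1044 ± 51.4) and Itgb3 (540 ± 33.5). Acp5, the tartrate-resistant phosphatase of osteoclasts, had 27.2, 14.8 and 7.04 normalised read counts, and Calcr, Dcstamp and Atp6v0d2 were at 0. Which cells carried the reads of these genes was not tested. Among 12 epithelial genes, 2 were detected, chiefly Krt19 with 456, 474 and 507, and Krt14 and Cldn4 had no read. Neural and Schwann genes were detected for 5 of 14, chiefly the tubulin Tubb3 at 969 ± 20.9, and Sox10, Snap25 and Rbfox3 were at 0. Of 13 genes of liver, pancreas, other organs and pluripotency, 9 had no read, among them Alb, Ins2 and Pou5f1, and the detected one was Nanog at 10.2 ± 3.78 normalised read counts (SD, n = 3).

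**Figure D2:**
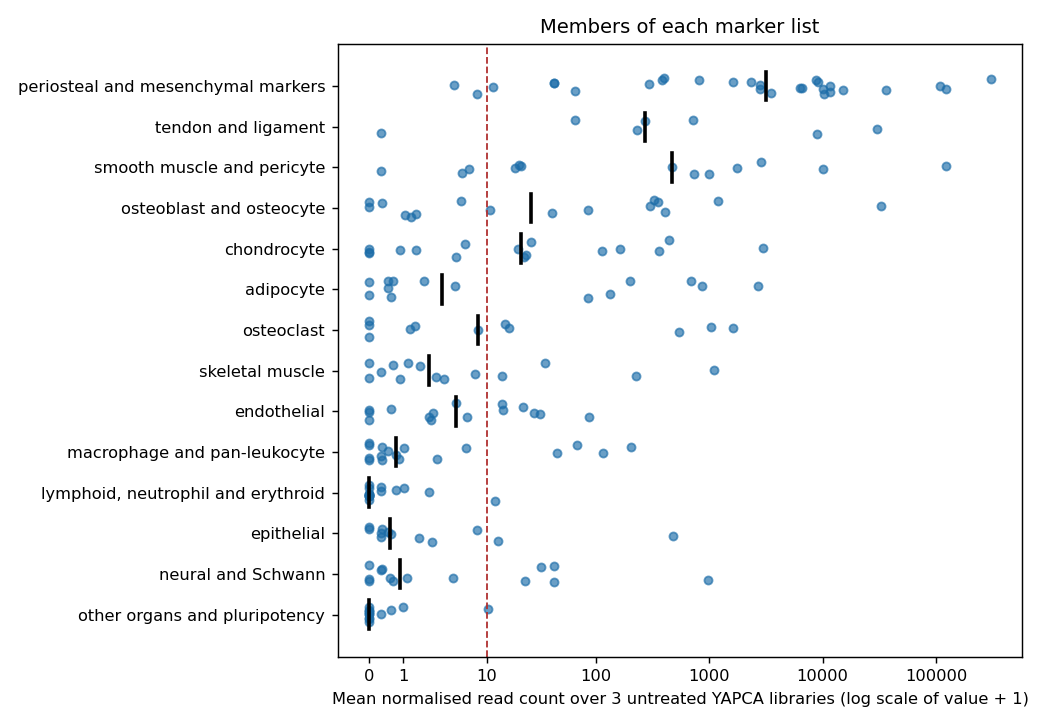
Levels of the members of each gene list in untreated YAPCA cells, as log10 of the mean normalised read count plus 1; each point is a gene and each black line the list's median. The dashed line marks the detection level of 10. The median of the periosteal list is 3157 normalised read counts, against 4.86 for endothelial and 0.736 for macrophage and leukocyte genes.

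Within the matrix list, 46 of 48 genes were detected, 42 reached 1000 normalised read counts, and the median was 23571. Beyond the highest genes, network-forming Col4a1 averaged 30955 ± 612 and the beaded-filament chain Col6a3 28479 ± 315 normalised read counts (SD, n = 3). The matricellular Ccn2 (listed as Ctgf) had 41523, 41901 and 33646, lowest in replicate 3. Mmp14, a membrane-anchored collagenase, averaged 19026 ± 297 and the gelatinase Mmp2 7400 ± 234, whereas the secreted Mmp13 and Mmp3 averaged 176 ± 3.05 and 169 ± 19.4. Small leucine-rich proteoglycans were unequal, with Bgn at 116419 ± 1823, Dcn (decorin) at 178 ± 17.5 and Lum (lumican) at 3.73 ± 1.62 normalised read counts. Eln, the gene of elastin, averaged 2.87 ± 1.31, and together with Lum it made up the undetected members of the list, although the microfibril gene Fbn1 averaged 32901 ± 112. Fbn2, the fibrillin of developing tissue, averaged 177 ± 12.5.

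Of 79 growth factor and cytokine receptors, 69 were detected and 37 reached 1000 normalised read counts. Axl, the receptor tyrosine kinase that binds Gas6, had the highest value of the list, with 35053, 36090 and 35719. Pdgfrb had 15072, 14996 and 15461 and the collagen receptor Ddr2 had 13351, 13100 and 13902 normalised read counts. The 3 libraries kept this order, with no overlap between Axl, Pdgfrb and Ddr2. Il6st (gp130), the shared signalling chain of the interleukin 6 family, had 11361, 10969 and 12144, and its partner Osmr, for oncostatin M, averaged 4601 ± 201. The ligand-binding chain Il6ra averaged 123 ± 6.47 and Lifr 395 ± 14.5 normalised read counts (SD, n = 3), so the subunits of this family differed in reads.

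Of the fibroblast growth factor receptors, Fgfr1 had the most reads, with 8247, 8438 and 8393 normalised read counts. Fgfr2 averaged 819 ± 34.6, Fgfr3 76.1 ± 7.82 and Fgfr4 4.68 ± 2.53 (SD, n = 3). The TGF-β receptors Tgfbr1, Tgfbr2 and Tgfbr3 averaged 1899 ± 42.5, 3277 ± 134 and 3436 ± 180 normalised read counts. Of the BMP receptors, Bmpr1a averaged 3244 ± 151, Bmpr2 2910 ± 124 and Bmpr1b 502 ± 12.5. Among the Wnt receptors, Ryk averaged 8868 ± 189, the co-receptors Lrp6 and Lrp5 4962 ± 283 and 1375 ± 26.6, and Fzd7, the highest frizzled gene, 2675 ± 70.9, while Fzd10 had no read. Smo, which transduces Hedgehog signals, averaged 3193 ± 30.6 and its inhibitor, the Hedgehog receptor Ptch1, 591 ± 32.2. The thrombin receptor F2r averaged 8715 ± 148 and the collagen receptor Ddr1 5181 ± 93.8. Receptors of parathyroid hormone (Pth1r, 83.8 ± 8.53) and oestrogen (Esr1, 91.2 ± 16.7) were detected below 100 normalised read counts. Kit, Erbb4 and Ngfr each averaged 0.309. These are levels of reads, not per length, so differences between receptors include transcript length.

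**Figure D3:**
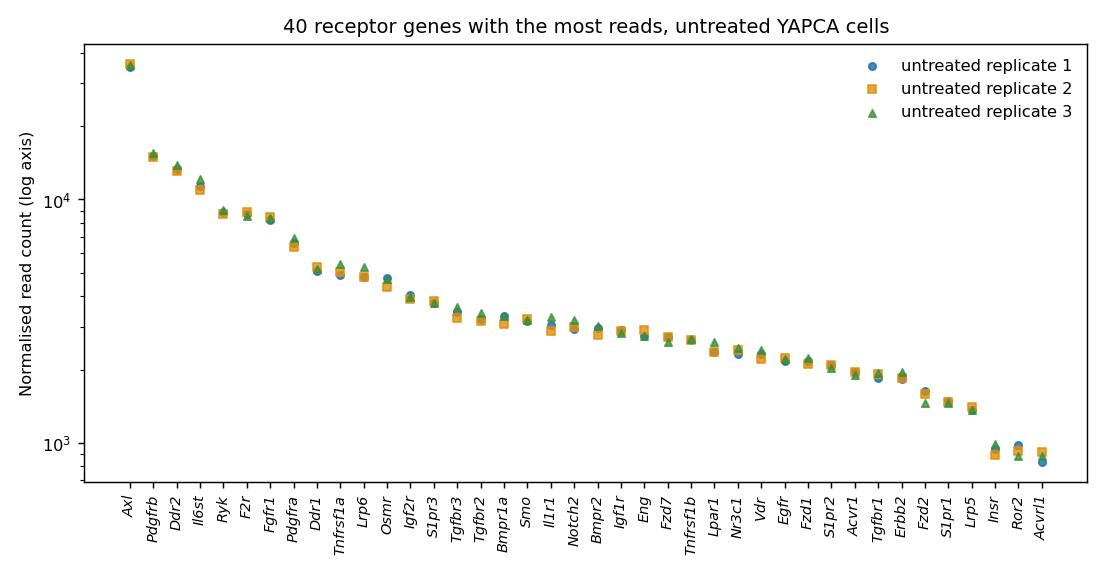
Normalised read counts, on a log axis, of the 40 growth factor and cytokine receptors with the most reads; each point is an untreated YAPCA library. Axl leads at 35053 to 36090, and the 3 points of each receptor lie close together.

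The co-activators and the TEAD factors of the Hippo pathway were expressed without Dox. Yap1 had 5134, 4945 and 5042 normalised read counts, and its paralogue Wwtr1 (TAZ) averaged 3127 ± 61.8 (SD, n = 3). The sources used here do not say whether transgene reads were counted for Yap1. Of the TEAD factors, Tead1 had 10843, 10620 and 10616 normalised read counts, Tead2 averaged 1344 ± 61.2, Tead3 949 ± 76.0 and Tead4 225 ± 27.9. The kinases Lats1 and Lats2, which phosphorylate YAP, averaged 2403 ± 112 and 2940 ± 46.2, and the upstream Stk3 and Stk4 averaged 877 ± 17.3 and 1046 ± 38.5 normalised read counts. Amotl2, an angiomotin that binds YAP, had 17741, 17210 and 16280, the highest of the list, and the TEAD cofactor Vgll3 averaged 9068 ± 167, whereas Vgll1 and Vgll2 had no read. In all, 20 of the 22 listed genes were detected.

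Positional genes gave a further description of the cells. Of 39 HOX genes, which encode position along the body, 29 were detected and 4 had no read, namely Hoxb1, Hoxd1, Hoxd11 and Hoxd12. Hoxc10, a gene of hindlimb-level position, was the highest with 1807, 1715 and 1866 normalised read counts, followed by Hoxc6 (1112 ± 46.0), Hoxc13 (644 ± 25.5) and Hoxa10 (608 ± 27.7). The HoxC cluster held 9 detected genes of 9, with a summed mean of 4681 normalised read counts, the HoxA cluster 10 of 11 with 1614, the HoxB cluster 7 of 10 with 366, and the HoxD cluster 3 of 9 with 249. Of 20 limb and craniofacial patterning factors, 17 were detected, the highest being Tbx15 at 2607 ± 60.5. The hindlimb factors Pitx1 and Tbx4 averaged 230 ± 13 and 58.6 ± 4.28, the forelimb factor Tbx5 28.2 ± 8.47, and Otx2, a factor of the anterior head, had no read. The sources used here do not name the bones from which the cells were taken.

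The cultures expressed genes of dividing cells together with genes of cell cycle arrest. All 17 listed cell cycle and senescence genes were detected. Ccnd1 (cyclin D1) averaged 9155 ± 263, the DNA synthesis enzyme subunit Rrm2 8131 ± 276, Top2a 6688 ± 236 and the proliferation marker Mki67 4629 ± 268 normalised read counts. The inhibitors Cdkn1a (p21), Cdkn2a and Cdkn2b averaged 8245 ± 177, 1625 ± 78.8 and 964 ± 20.1 (SD, n = 3). Bulk values do not show whether the same cells expressed both groups.

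Transcripts of both sex chromosome systems were present in each library. Xist, the RNA of the inactive X chromosome, had 1487, 1486 and 1350 normalised read counts. The Y-linked Ddx3y had 2079, 1878 and 1939, and Eif2s3y had 925, 937 and 953. Kdm5d and Uty, also Y-linked, averaged 640 ± 32.1 and 472 ± 25.7 (SD, n = 3), and Tsix, the antisense partner of Xist, had no read. Reads of both kinds of gene were thus seen in each of the 3 libraries at a steady level. The labels do not give the sex of the animals.

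Absent genes fell unevenly over the kinds of gene. Of 21268 protein-coding genes in the RefSeq annotation, 58.3% were detected and 24.7% had no read in any library, and they took 98.9% of the reads. Of 10114 long non-coding genes, 6.66% were detected, 62.6% had no read, and they took 0.454% of the reads. The highest non-coding genes were Malat1, a nuclear RNA, with 10383, 10967 and 9143 normalised read counts, the imprinted Rian with 9366, 9078 and 8891, and the imprinted Meg3 with 8997, 8635 and 7097. By families picked by name after their values were seen, 1085 of 1124 olfactory receptor genes and 323 of 337 vomeronasal receptor genes had no read. All 25 major urinary protein genes were at 0, as were 52 of 54 keratin-associated protein genes. The libraries were made from polyadenylated RNA, and 987 of 1185 microRNA genes had no read.

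The 3 libraries gave nearly the same levels, and most of the larger differences lay in replicate 3, the shallowest. The median CV of the genes of at least 1000 normalised read counts was 2.64%. Genes of that level that differed by more than 1.2-fold numbered 2 between replicates 2 and 1, 23 between 3 and 1, and 18 between 3 and 2. The 6 most variable by CV included 3 mitochondrial genes of the respiratory chain. ND6 had 7114, 8045 and 9566 normalised read counts, ND5 had 26368, 28107 and 34551, and COX1 had 97700, 106225 and 126722. All were highest in replicate 3, in which mitochondrial genes took 1.23% of the reads, against 0.972% and 1.03% in replicates 1 and 2. Of the other 3, Sema7a, a membrane-anchored semaphorin, had 1166, 1252 and 944, and Cox5b, a nuclear gene of the respiratory chain, had 1143, 1160 and 892, both lowest in replicate 3. Bst2, an interferon-induced gene, had 1164, 1470 and 1501. Of the 14 most variable genes, replicate 3 gave the highest value for 7 and the lowest for 7. Whether depth had a part in this was not tested.

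**Figure D4:**
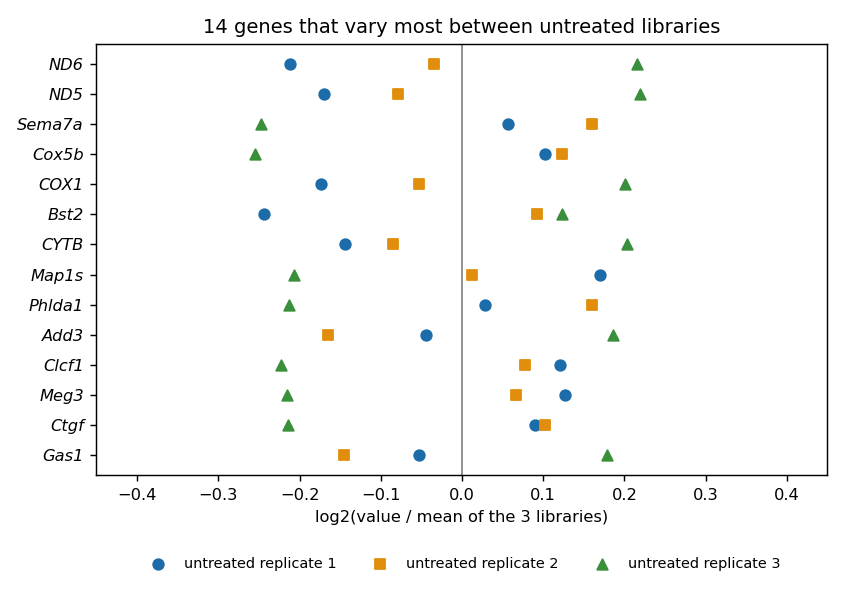
The 14 most variable genes with a mean of 1000 normalised read counts or more, as log2 of each library's value over the mean of the 3 untreated YAPCA libraries. Replicate 3 is highest for the mitochondrial ND6, ND5 and COX1 and lowest for Sema7a, Cox5b and Ctgf.

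The Dox-treated YAPCA libraries show how much of this state differed after Dox. On the whole table, 3757 of 13477 tested genes (27.9%) passed limma's test on log2(normalised read count + 1) at a Benjamini-Hochberg adjusted p below 0.05, of which 1931 (14.3% of those tested) rose and 1826 (13.5%) fell. The median log2 change over all tested genes was 0.0007. In the matrix list 33 of 46 tested genes passed, with 8 that rose and 25 that fell, and the median log2 change was -0.12. Of the 69 tested receptors, 36 passed, with 14 that rose and 22 that fell and a median of -0.03. Among 25 tested periosteal markers, 13 passed, with 3 that rose and 10 that fell and a median of -0.11. The lists share genes, so their counts are not independent, and they were chosen with earlier results known. The matrix list had a median of 23571 normalised read counts, and small changes passed in it, such as Timp2 at a log2 change of -0.11. Whether its share exceeds that of other genes of like level was not tested.

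Values of single members show the size of these differences. Tgfbi, a secreted protein induced by TGF-β, had 1309, 1383 and 1500 normalised read counts with Dox, against 2327, 2274 and 2339 untreated, the log2 change being -0.73 ± 0.044 (SE; limma, adjusted p = 6.27e-09). Thrombospondin gene Thbs2 had 27745, 27519 and 29234 with Dox, against 38277, 37929 and 37792 untreated (-0.43 ± 0.026; limma, adjusted p = 6.27e-09). Col1a1 averaged 222276 ± 982 with Dox and 307111 ± 12139 untreated (SD, n = 3 each), a log2 change of -0.47 ± 0.029 (limma, adjusted p = 8.9e-09). In contrast to these falls, Cyr61 had 37840, 38310 and 35572 with Dox, against 24937, 25819 and 22804 untreated (0.60 ± 0.039; limma, adjusted p = 1.06e-08). Of the 13 matrix genes that did not pass, Sparc averaged 161338 ± 2872 with Dox and 167365 ± 1506 untreated.

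Receptors moved in both directions. F2r had 11852, 12216 and 12421 normalised read counts with Dox, against 8749, 8842 and 8553 untreated, a log2 change of 0.48 ± 0.026 (SE; limma, adjusted p = 2.12e-09). S1pr3, a receptor of sphingosine 1-phosphate, had 2501, 2644 and 2684 with Dox, against 3743, 3834 and 3739 untreated (-0.53 ± 0.033; limma, adjusted p = 7.43e-09). Tnfrsf1b, a receptor of tumour necrosis factor, had 1793, 1791 and 1983 with Dox, against 2641, 2654 and 2682 untreated (-0.52 ± 0.039; limma, adjusted p = 6.87e-08). In none of these did the groups overlap, which is no separate evidence, since these receptors were named for their small adjusted p. Pdgfra had 4707, 4617 and 5029 with Dox, against 6612, 6380 and 6929 untreated (-0.47 ± 0.036; limma, adjusted p = 6.87e-08). Of the remaining periosteal markers, Cd44 had 15002, 15226 and 14839 with Dox, against 11660, 11874 and 11289 untreated (0.37 ± 0.026; limma, adjusted p = 2.56e-08). Cxcl12 had 6608, 6566 and 6929 with Dox, against 8807, 8528 and 9045 untreated (-0.39 ± 0.030; limma, adjusted p = 6.87e-08). Prrx1 and Postn of the opening markers also fell, as did Col1a1 and Pdgfra. Their log2 changes were -0.33 ± 0.027 for Prrx1 (limma, adjusted p = 1.34e-07) and -0.23 ± 0.026 for Postn (limma, adjusted p = 7.2e-06).

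The ranking of the highest genes used the untreated libraries alone, which can favour a fall with Dox among them, including Col1a1 and Sparc above. For 3 more of the highest genes values are given with no test. Thbs1 averaged 328826 ± 2345 normalised read counts with Dox and 250250 ± 10050 untreated, and so stood above Col1a1 in the Dox libraries. Csf1 averaged 109209 ± 787 with Dox and 77242 ± 2353 untreated (SD, n = 3 each). Acta2 averaged 117577 ± 2530 with Dox and 121158 ± 2268 untreated.

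The wild-type table lists 98 genes, all of them also in the YAPCA table, and puts the untreated cells beside untreated WT cells for those genes. In the authors' deposited table all 98 have an adjusted p below 0.05 for Dox in WT cells, the largest being 0.0494, with 75 that fell and 23 that rose, so they were chosen by a contrast that used the untreated WT libraries and do not stand for all genes. The YAPCA and WT tables were normalised separately, and genotype, culture and scaling cannot be told apart, so no test was made. In untreated YAPCA cells 95 of the 98 had a mean of 1000 normalised read counts or more, and in untreated WT cells the lowest mean was 2086. All 3 YAPCA values lay below all 3 WT values for 80 genes (81.6%) and above them for 8 (8.16%), and the groups overlapped for 10. The median ratio of the YAPCA mean to the WT mean was 0.734, with quartiles of 0.682 and 0.853. A common shift of this size moves with the scaling of the tables. With each library divided by its median over the 98 genes, 59 were lower in YAPCA and 21 higher.

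Relative to that common shift, several genes stood apart. Thbs1 had 254781, 257237 and 238733 normalised read counts in YAPCA cells, against 456977, 452823 and 449999 in WT cells, a ratio of 0.552. Tnc had 31900, 31224 and 28158 in YAPCA cells, against 62761, 63084 and 63426 in WT cells (ratio 0.482), and Ltbp2, which binds fibrillin microfibrils, had 36851, 36810 and 33867 against 69344, 69670 and 65611 in WT cells (0.525). Matrix genes of the shared list were not all lower, however. Nid1, which links laminin to type IV collagen, had 59283, 57515 and 58373 in YAPCA cells, against 44070, 43021 and 44281 in WT cells (ratio 1.33). The secreted Olfml3 had 6434, 6282 and 6728 in YAPCA cells, against 3420, 3250 and 2875 in WT cells (ratio 2.04). Nid1 and Olfml3 were also above 1 after division by the library medians, at 1.61 and 2.46.

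At the low end, Igfbp2, which binds insulin-like growth factors, had 515, 642 and 623 normalised read counts in YAPCA cells, against 3570, 3429 and 3273 in WT cells (ratio 0.173). Cspg4 (NG2), a proteoglycan of pericytes, had 1059, 1067 and 833 in YAPCA cells, against 4614, 4531 and 4546 in WT cells (ratio 0.216). Inhba, a subunit of activin, had 7261, 7364 and 6369 in YAPCA cells, against 17442, 17086 and 19171 in WT cells (ratio 0.391). Division by the library medians left these ratios below 1, at 0.209, 0.260 and 0.471. Stab1, a scavenger receptor known from macrophages and sinusoidal endothelium and singled out after its values were seen, had 27.2, 23.1 and 9.85 in YAPCA cells, against 2752, 2794 and 2422 in WT cells. Its ratio of 0.00755 was the lowest of the 98. The macrophage markers of the list have no value in the WT table used here, so their part in the Stab1 difference was not tested.

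**Figure D5:**
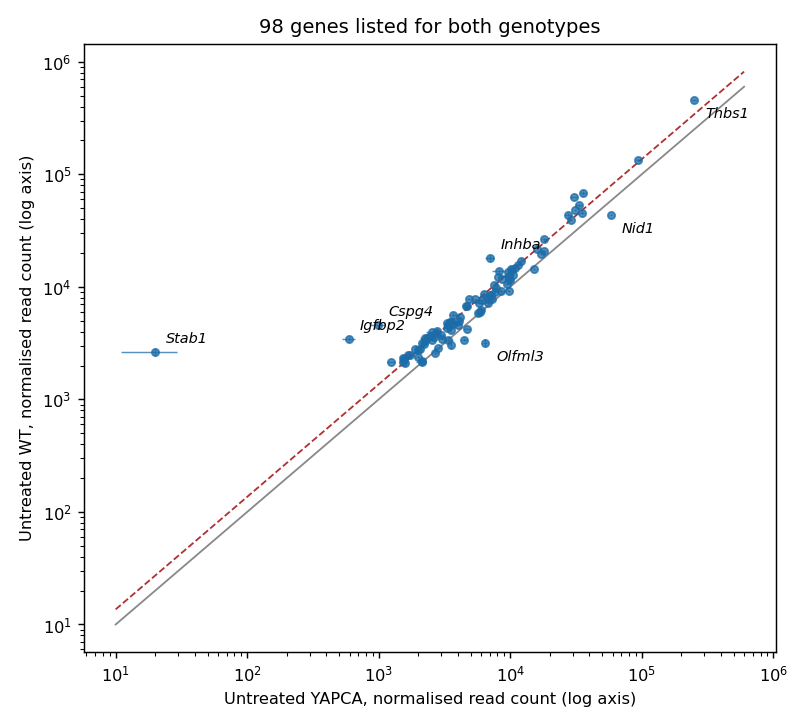
Mean of untreated YAPCA cells (x axis) and of untreated WT cells (y axis) for the 98 genes of both tables, in normalised read counts on log axes with SD bars (n = 3). The grey line marks equal values and the dashed line the median ratio of 0.734; most points lie on the WT side of the grey line, Stab1 farthest from it, and Olfml3 and Nid1 lie on the YAPCA side.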

How the data were processed

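RNA-seq was made from cultured periosteal cells as polyadenylated-RNA libraries, per the labels' protocols. Alignment and counting tools in the submitters' processing notes are HISAT2, featureCounts, Picard and DESeq2, with build mm10, their versions, settings and use of strand being not given in the sources used here. Each deposited signal value, per gene and library, is a normalised read count, which the authors obtained from reads divided by a single size factor for each library. The values of the YAPCA libraries show this, since dividing by the step of each column returned whole reads for 100% of them within 0.01 read. The WT values were not checked in this way. The WT table's adjusted p-values are the authors' own. Its log2 fold changes and ratio (fold) columns were deposited by the authors too. Columns of per-sample values without a sample numbered 0.

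The files hold normalised counts, so limma 3.58.1 in R 4.3.3 (trend, two-sided) was fitted to log2(value + 1) for Dox against untreated YAPCA cells over genes with a mean of at least 10 in the 6 libraries. That scale understates changes of low genes. DESeq2 1.42.0 and edgeR 4.0.16 on the recovered reads, other scalings, pseudocounts, filters, a replicate block and leaving out each library were alternatives. Ranks and counts were made in Python 3.11.15. The code was tested on simulated data. Replicates differed by more than sampling noise (chi-square per degree of freedom 2.59), and each was counted as a sample.

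The 21 gene lists, with 420 distinct members in the table, of which 282 were detected and 53 were at 0, and the libraries to describe were chosen with earlier results of these data known. Named genes are the 20 highest, the highest members of each list and up to 6 members at 0, up to 4 members of the matrix, receptor and periosteal lists by adjusted p, the genes of highest level and of highest and lowest ratio among those shared with WT, and the 6 most variable. Other list members are named as examples after their values were seen. Promoters were matched by symbol, and a gene counts once. In 27 lines of the table, 21 of them detected, a date stands where the gene name should be, and these are not named. A few genes under this rule are left unreported.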

Additional observations from a re-analysis of the deposited data

How the results depend on the processing

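The count of 3757 genes changed by Dox was 2843 with DESeq2 and 3824 with edgeR on recovered reads, and 2879 to 3583 when a single library was left out. In those leave-one-out fits the matrix list had 30 to 32 changed members, the receptor list 31 to 37 and the periosteal list 10 to 12. Deviations of same-numbered Dox and untreated libraries correlated at 0.06, 0.11 and 0.20 for replicates 1, 2 and 3. Dox replicate 1 correlated best with untreated replicate 2, at 0.10. Dox replicate 3 correlated at -0.09 and -0.15 with untreated replicates 1 and 2. Untreated replicate 3 correlated at -0.14 with Dox replicate 1 and at -0.14 with Dox replicate 2. Whether the replicate numbers pair the samples was not tested, and the main fit was unpaired. A replicate block gave 4350 changed genes, and 35, 40 and 14 members of the matrix, receptor and periosteal lists. Genes higher in untreated YAPCA than in untreated WT cells numbered 21, against 8 as deposited, when each library was divided by its median over the shared genes. The 237 other comparisons set a single gene or level beside an alternative. Among them, the log2 changes with Dox kept their direction and their side of the threshold. Those genes were named for small adjusted p, and Col1a1 and Pdgfra counted once per list, so a failure was unlikely. Levels were set only beside means that left out a single library, which could hardly move them and involve no direction or threshold. Ranking per kilobase was not run, since no exon lengths were used here. Precision is limited by the shallowest library, in which 3 reads stand for 4.22 normalised read counts.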

Other observations

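A few genes that textbooks describe as abundant in fibroblasts had few reads in all 3 untreated YAPCA libraries. Tagln (transgelin), an actin-binding protein of contractile cells, had 17.6, 17.6 and 19.7 normalised read counts, while its fellow contractile genes Acta2 and Cnn1 were above 10000 on average. In RefSeq on GRCm38.p6, Tagln lies on chromosome 9 at 45929628 to 45936058, and 2480 bases of it overlap the span of Pcsk7, which averaged 1284 ± 86.6 normalised read counts (SD, n = 3). Whether the overlap bears on the Tagln count was not tested. Gapdh, the glycolytic enzyme often used as a reference gene, had 954, 1205 and 1086 normalised read counts. RefSeq names 3 pseudogenes after Gapdh, and any copies under other names were not counted. Whether reads were shared with any of these was not tested.

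The 13 mitochondrial protein-coding genes split into 7 with means above 7000 normalised read counts, such as COX1 and ND5, and 6 with means below 110. The low ones were COX2 (86.3), COX3 (47.1), ND3 (44.9), ATP6 (31.7), ND4L (6.98) and ATP8 (1.72). The cause of the split was not tested.

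Of 114 small nucleolar RNA genes named in the table, 48 were detected and 16 had no read, against 12 detected and 987 with no read among 1185 microRNA genes. Further long non-coding RNAs included Neat1 at 6211 ± 444 and Gas5 at 4042 ± 253 normalised read counts (SD, n = 3).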
